A study of Mus musculus with 30 samples.

Results

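The nuclear-encoded subunits of the 5 complexes of oxidative phosphorylation were followed in cultured mouse extraocular muscle, the muscle group that moves the eye, over 48 h. Members were all probe sets with a single gene symbol beginning with Nduf, Uqcr or Atp5, the 4 Sdh subunit genes, and the genes of cytochrome c oxidase subunits 4 to 8. The muscle isoforms Cox6a2, Cox7a1 and Cox8b were left out and served as a comparison. This gave 153 of 22690 probe sets on the Affymetrix A arrays, for 81 genes, and 22 of 22575 on the B arrays, for 18 genes. Together these were 175 of 45265 probe sets and 87 genes, 12 of them on both array types. A further 10 probe sets with several symbols (8 of the A type, 2 of the B type) were not used. By role the 87 genes were 35 subunits of complex I, 4 of complex II, 8 of complex III, 13 of complex IV and 17 of complex V, with 8 complex I assembly factors and 2 related proteins (Cox7a2l and Ndufa4l2).

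Total RNA from the culture was hybridised at 0, 4, 12, 24 and 48 h, in triplicate at each time for both array types, which makes 30 arrays. The labels used here give no strain, age or treatment, and do not say what started the clock. They also leave unsaid whether the triplicates came from different cultures and whether equally numbered A and B arrays hold one RNA. The p-values thus reflect spread among arrays alone, and that spread may be technical. On the B type, replicate 1 at 0 h is titled as extraocular muscle but has leg muscle as its source name, and it was kept under its title. Intensities are mean ± SD and log2 changes ± SE, each over n = 3 arrays, a number that limits the precision. Each array had been scaled to a fixed mean, so every change is relative to the rest of its array. Heights of different probe sets are not comparable as amounts of RNA.

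Oxidative phosphorylation takes place in the inner mitochondrial membrane. Complex I (NADH dehydrogenase) and complex II (succinate dehydrogenase) pass electrons to ubiquinone, complex III passes them to cytochrome c, and complex IV (cytochrome c oxidase) passes them to oxygen. The proton gradient built by complexes I, III and IV drives complex V, the ATP synthase. Extraocular muscle is known for its high mitochondrial content and its resistance to fatigue. Some complex IV subunits exist as a ubiquitous form and a form of heart and skeletal muscle, and the muscle form replaces the ubiquitous one as fibres mature.

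The culture carried the markers of skeletal muscle: all 10 listed genes (among them Des, Ckm, Acta1 and Myog) lay above the brightness limit for testing, with a summed intensity of 44134 to 56318 at 0 h, 51281 to 72580 at 12 h and 55034 to 62201 at 48 h. Of the markers of other cells, 2 of 7 fibroblast genes, 1 of 5 endothelial, 3 of 6 macrophage, 4 of 6 smooth muscle and pericyte, 3 of 4 nerve, 0 of 3 fat cell and 0 of 2 red cell genes lay above it. The fibroblast sum was 2558 to 3034 at 0 h and 3943 to 4311 at 48 h, with Col1a1, Dcn, Lum, Pdgfra and Thy1 below the limit. The nerve sum was 752 to 803 and 252 to 404. The smooth muscle and pericyte sum was 11936 to 18159 and 15038 to 17542, with Cnn1 and Myh11 below the limit. By limma, Mcam, Pdgfrb and Tagln of that list rose by 48 h on the A arrays, as did Col3a1 of the fibroblast list. Actn2, Tnnc2 and Tnnt3 of the skeletal muscle list also rose, whereas Myod1, Nefl and Nefm fell. The lists did not move as a whole. At 48 h 1 of 4 tested smooth muscle and pericyte genes was below 0. So were 1 of 2 fibroblast and 4 of 10 skeletal muscle genes, while 1 of 3 nerve genes was above 0. On the B arrays 2 of 2 tested fibroblast genes were below 0, and the 1 smooth muscle and pericyte gene changed by -0.18. The part of these cells in the results was not tested. In RNA from a whole culture, fewer cells of a type and less RNA per cell cannot be told apart.

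The subunit transcripts were among the brightest on the arrays and changed little. The median member on the A arrays had a mean intensity of 3183, the 95.6th percentile of all probe sets, and 115 of 153 lay at or above the 90th percentile. In all, 141 of 153 probe sets and 80 of 81 genes were bright enough to be tested. Cox6b2, a testis form of subunit 6b, was not, with a mean of 50.7, nor were 11 dim probe sets of genes that had a brighter one. At 48 h against 0 h the median log2 change of the 141 was -0.09, beside 0.02 over all 13577 probe sets tested. The 95% interval of the change lay wholly within 1.5-fold for 113 of the 141 (80.1%), beside 49.3% of all probe sets, and within 2-fold for 137 (97.2%), beside 88.3%. The members' standard errors were also smaller, with a median of 0.13 against 0.18, and the shares depend on this precision as well. The limits of 1.5-fold and 2-fold were chosen after the values were seen.

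Very few members passed the test. By limma with Benjamini-Hochberg adjustment over all probe sets, no member passed at 4 h, when 0.0295% of all did, or at 12 h, when 0.368% did. At an unadjusted p under 0.05, 2 and 12 members passed, with 6.02% and 12.8% of all probe sets. At 24 h 1 member passed, as higher (0.709% of members; 5.56% of all passed, 3.23% as higher). At 48 h 4 passed (2.84%), 1 higher and 3 lower, when 6.7% of all passed, 4.2% as higher and 2.5% as lower. At an unadjusted p under 0.05, 20 members passed at 24 h (14.2%; 19.6% of all) and 23 at 48 h (16.3%; 19.7% of all). The F-test over the 5 times called 2 members (1.42%), beside 7.59% of all. Between neighbouring times limma called no member at 12 h against 4 h, 24 h against 12 h or 48 h against 24 h, where 0.295%, 0.0884% and 0.626% of all passed and 11, 7 and 15 members (7.8%, 4.96% and 10.6%) had an unadjusted p under 0.05, with 11.5%, 7.09% and 11.4% of all. All comparisons with 0 h share the 0 h arrays. The 24 h count went to 0 when any array at 0 h was left out, or replicate 1 or 2 at 24 h. It went to 5 without replicate 3 at 24 h, and to 2 if the array removed was replicate 2 at 12 h or replicate 3 at 48 h. The 48 h count went to 0 on removing replicate 1 or 3 at 48 h, and to 1 for replicate 1 at 0 h, replicate 3 at 4 h, and replicates 1 and 2 at 24 h, each removed alone. It was 2 with replicate 2 at 0 h removed and 6 with replicate 2 at 12 h removed. The F-test count was 0 when replicate 1 or 3 at 48 h was removed and 5 for replicate 2 at 12 h. It was 1 for each array at 0 h and 4 h, replicate 1 at 12 h, and replicates 1 and 2 at 24 h. With replicate 3 at 12 h removed, 1 member was called at 12 h against 0 h and at 12 h against 4 h, and with replicate 2 at 48 h removed, 1 at 48 h against 24 h.

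**Figure D1:**
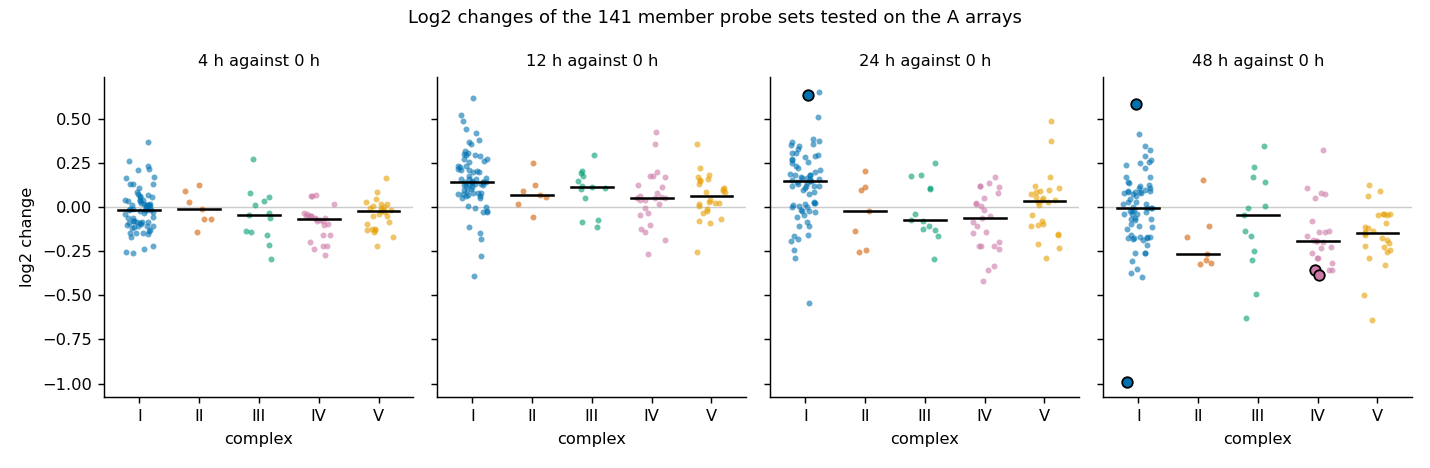
Log2 change of each of the 141 member probe sets tested on the A arrays (points) at 4, 12, 24 and 48 h against 0 h. The horizontal axis gives the complex, with assembly factors and Cox7a2l beside their complex. Black lines are medians over all points of a complex. The complex medians in the text differ, as they use 1 probe set per subunit gene. Points outlined in black passed limma's adjusted threshold: 1 at 24 h and 4 at 48 h, where the drawn values span -0.99 to 0.59.

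Although few single genes passed, the members were not spread evenly around 0. At 12 h 29 of 141 (20.6%) had a negative change, beside 49.8% of all probe sets, and the median was 0.11, beside 0.00. The values of the 3 arrays at 12 h lay above all 3 at 0 h for 27 members (19.1%; 7.27% of all) and below for 2 (1.42%; 8.01% of all). Against 4 h the 12 h arrays stood higher without overlap for 38 members (27%; 7.54% of all) and lower for 1 (0.709%; 9.39% of all). At 4 h, 63.1% of members had a negative change, beside 48.2% of all, and at 24 h 37.6%, beside 51.8%. The 24 h values lay above all 0 h values for 19 members (13.5%; 11.5% of all) and below for 14 (9.93%; 12.7% of all). These are descriptions of the list with no test, and genes on the same array share its deviations. Scaling the arrays to the same median in place of the same mean moves every probe set alike, by -0.04 at 4 h, -0.06 at 12 h, -0.02 at 24 h and -0.11 at 48 h.

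The 3 arrays at 48 h differed for these genes, and the 48 h values depend on which of them are used. Over the 115 bright members, the median deviation from each probe set's mean over the 15 arrays was -0.06, 0.05 and -0.28 in replicates 1, 2 and 3 at 48 h. Over all 2263 probe sets at or above the 90th percentile it was -0.02, -0.01 and -0.10. Replicate 3 was thus low for bright probe sets in general and lower still for the members. Within that range the 2263 were not matched to the members in brightness. At 48 h 93 of 141 members (66%) had a negative change, beside 47.5% of all. Without replicate 3 this was 71 (50.4%, beside 47.8% of all), and the median went from -0.09 to -0.00. With all arrays, 22 members (15.6%; 10.5% of all) lay below 0 h without overlap and 6 (4.26%; 13.5% of all) above; without replicate 3 each count was 23 (16.3%), beside 15.3% and 18.9% of all. Against 24 h, 119 members (84.4%; 44% of all) were negative with the array and 88 (62.4%; 44.6% of all) without it. Leaving out replicate 2, the highest of the 3, moved the values the other way: the median was -0.16, 106 members (75.2%; 47.2% of all) were negative, and 47 (33.3%; 16.4% of all) lay below 0 h without overlap. Against 24 h, 11 members (7.8%; 7.85% of all) lay lower without overlap with all arrays and 52 (36.9%; 14% of all) without replicate 2. All bright probe sets had a median change of -0.10 at 48 h and the bright members -0.11, whereas at 12 h these were -0.02 and 0.11 and at 24 h -0.06 and 0.05. The brightness limit of this comparison was chosen after the values were seen.

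**Figure D2:**
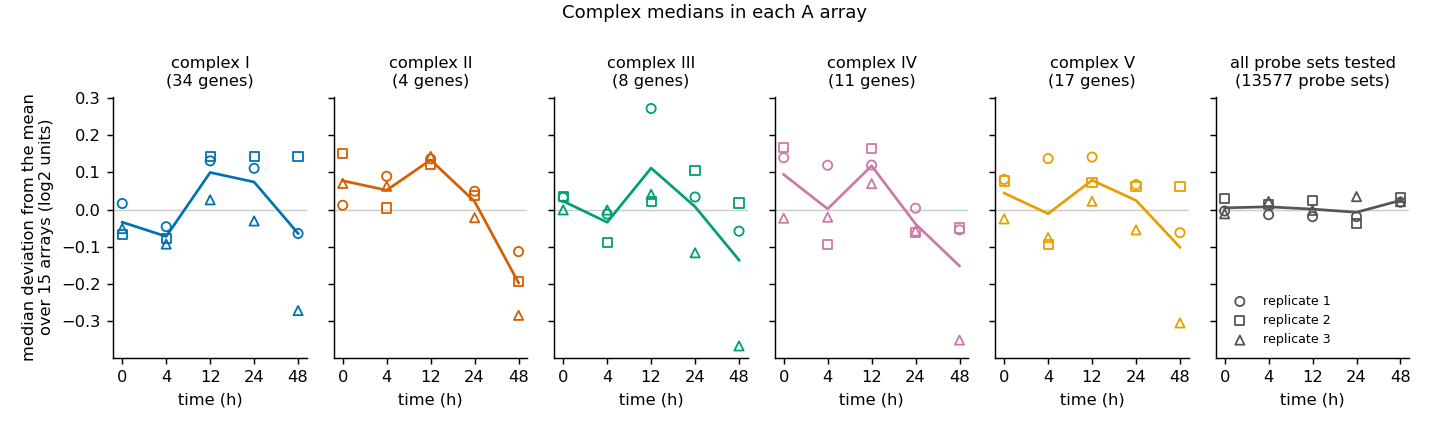
Median deviation of the subunit genes of each complex from their own mean over the 15 A arrays (log2 units), 1 point per array, 1 probe set per gene, by time in h, with the line through the means of 3 arrays and all tested probe sets at the right. At 48 h replicate 3 (triangles) lies lowest in every complex, at -0.27 to -0.37, while the median of all probe sets stays between -0.04 and 0.03 in all 15 arrays.

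Of the 5 complexes, complex I had the highest median change from 0 h at 12 and 24 h. At 12 h complex III was close to it, at 0.11 beside 0.12. With 1 array left out, complex III ran from 0.04 to 0.12 and complex I from 0.08 to 0.17. Of 34 subunit genes on the A arrays, each read from its brightest probe set, 27 had a positive change at 12 h and 24 at 24 h, with a median of 0.12 at both times, and 15 at 48 h, with a median of -0.02 (0.09 without 48 h replicate 3, -0.14 without replicate 2 and -0.07 without 0 h replicate 2). The 12 h median was 0.08 without 12 h replicate 1, and the 24 h median 0.08 without 0 h replicate 3 or 24 h replicate 2. By limma none passed the test in this set, and 5 of 34 had an unadjusted p under 0.05 at each of the 3 times, when 12.8%, 19.6% and 19.7% of all probe sets did. The per-array medians at 12 h were 0.13, 0.14 and 0.03, all above the 0 h values of 0.02, -0.07 and -0.05. At 24 h they were 0.11, 0.14 and -0.03, which overlapped them. The mean of these deviations at 12 h was 0.10, below those of complexes II (0.13), III (0.11) and IV (0.12), and the order of the changes also rests on the 0 h values, where complex I had a mean of -0.03.

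Among the core subunits of complex I, Ndufs1, the largest iron-sulfur subunit, read 1930.2, 2415 and 1559 at 0 h and 1504, 1679 and 1250.4 at 48 h (-0.40 ± 0.16, limma adjusted p = 0.169). The times overlapped, and 0 h replicate 2 was the highest of the 6 values. Ndufs3, another core subunit of the peripheral arm, went from 3334 ± 88.4 to 2877 ± 211 with no overlap (-0.21, limma adjusted p = 0.34). The flavoprotein Ndufv1, which takes electrons from NADH, changed by 0.14 in its brightest probe set and by -0.04 and 0.00 in the others. Ndufv2, its partner, changed by -0.11, -0.17 and -0.17 in 3 probe sets. Ndufab1, the mitochondrial acyl carrier protein, had changes of -0.12 in a bright and 0.35 in a dim probe set, neither of which passed.

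Among the brightest probe sets of the complex I subunit genes, assembly factors aside, the 3 largest statistics at 48 h were negative and belonged to accessory subunits. Ndufa4, named as a complex I subunit and since assigned to complex IV, was kept with complex I here by its symbol. It read 7778, 8916 and 7460 at 0 h and 7089, 6679.8 and 5285 at 48 h. Every 48 h value was below every 0 h value (-0.35 ± 0.11, limma adjusted p = 0.0788). Ndufb6, a subunit of the membrane arm, was also lower without overlap in its brighter probe set (-0.30 ± 0.10, limma adjusted p = 0.092) and changed by -0.07 in the other. Ndufa1, also of the membrane arm, changed by -0.26 (limma adjusted p = 0.153). On the positive side, and chosen after their values were seen, stood Ndufa13 and Ndufs5, both accessory subunits. Ndufa13 read 3948, 3742 and 3813 at 0 h and 5954, 6032 and 4548 at 24 h, without overlap (0.51 ± 0.18, limma adjusted p = 0.117). Ndufs5 read 1965, 1725 and 1894 at 0 h and 2545, 2581 and 2085 at 24 h (0.36 ± 0.12, limma adjusted p = 0.0826). Neither passed.

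Ndufa7 gave conflicting readings from its 5 probe sets. The dimmest of them, 1 of 3 whose suffix (x_at) marks probes that may match other transcripts, read 601, 599 and 632 at 0 h, 426, 542 and 532 at 24 h and 218, 523 and 231 at 48 h. It fell by 48 h (-0.99 ± 0.23, limma adjusted p = 0.0128), with replicates 1 and 3 low and replicate 2 close to the 24 h values. It was called in 21 of 24 alternatives, the exceptions being a fit of only the times compared and the removal of replicate 1 (-0.78) or replicate 3 (-0.82) at 48 h. The other 4 probe sets, all brighter and 2 of them with the same suffix, changed by 0.09 to 0.26 and none passed. The fall thus belongs to this probe set, and no direction is given for the gene.

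The only member that passed as higher was Ndufaf3, an assembly factor that helps join the peripheral arm of complex I to the membrane. It read 476, 448 and 477 at 0 h, 502, 511 and 576 at 4 h and 750.3, 946 and 539.6 at 12 h, then 826, 721 and 669 at 24 h and 702, 803 and 634 at 48 h. From 4 h on every value lay above all 0 h values. The rise was 0.64 ± 0.17 at 24 h (limma adjusted p = 0.0334) and 0.59 ± 0.17 at 48 h (limma adjusted p = 0.0437). Its size held over the alternatives, between 0.56 and 0.71 at 24 h and 0.48 and 0.67 at 48 h, but its adjusted p lay near the threshold. It lost its call at 24 h in 7 of 24 alternatives (highest adjusted p 0.143) and at 48 h in 15 of 24 (highest 0.146). At 24 h the arrays whose removal ended the call were all 3 at 0 h and replicates 1 and 2 at 24 h, beside 2 other settings. At 48 h they were all 3 at 0 h and all 3 at 48 h, replicates 1 and 3 at 4 h, replicate 1 at 12 h and replicates 1 and 2 at 24 h, beside 4 other settings. Of the other 4 assembly factors on the A arrays, Ndufaf4 changed by 0.27 at 48 h and Ndufaf1, Ndufaf5 and Ndufaf7 by 0.09, -0.02 and 0.09, with no call.

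**Figure D3:**
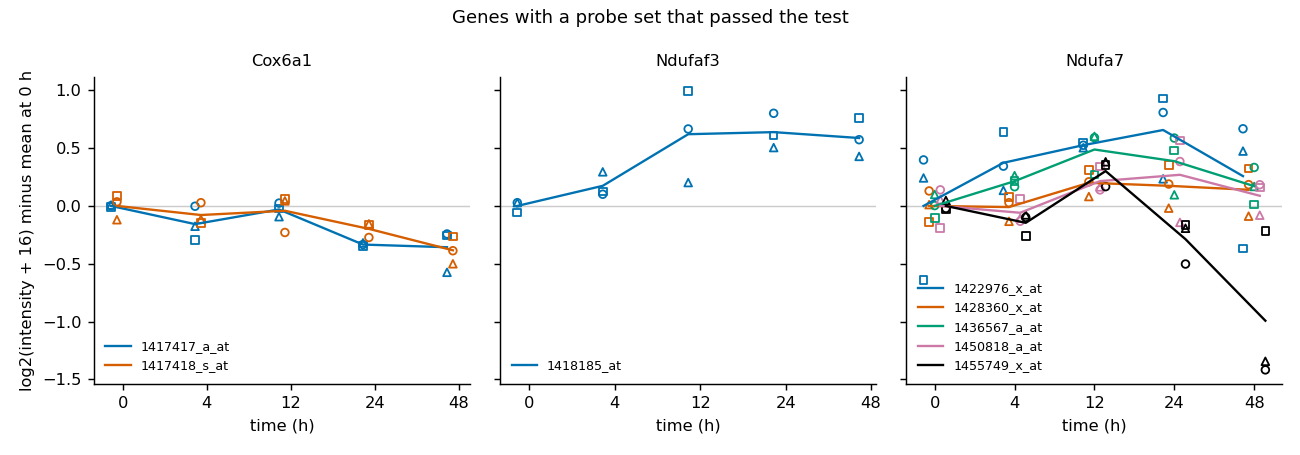
Log2(intensity + 16) minus its mean at 0 h in each A array (points, by replicate as circle, square and triangle), with lines through the means of 3 arrays, by time in h, for every tested probe set of the 3 genes with a called one. Both Cox6a1 probe sets lie low at 48 h, Ndufaf3 lies high from 12 h, and only 1 of 5 Ndufa7 probe sets lies low at 48 h.

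Complex II, which also belongs to the tricarboxylic acid cycle, had the lowest median at 48 h, with all 4 subunit genes below 0. The median was -0.29 (-0.19 without 48 h replicate 3), after 0.06 at 12 h (0.04 to 0.10 with 1 array left out) and -0.08 at 24 h (-0.02 without 24 h replicate 3, -0.03 without 0 h replicate 2). In single arrays its median deviation was 0.01, 0.15 and 0.07 at 0 h and -0.11, -0.19 and -0.28 at 48 h, so that the times did not overlap. Sdha, the flavoprotein that oxidises succinate, read 3453, 3686 and 3272 at 0 h and 3051, 2681 and 2602 at 48 h (-0.32 ± 0.12, limma adjusted p = 0.128). Its other probe set gave -0.30, also without overlap. On the B arrays a dimmer Sdha probe set changed by 0.20 ± 0.22 (limma adjusted p = 0.845), of opposite sign and with overlap, and the fourth was too dim to be tested. Sdhb, the iron-sulfur subunit, changed by -0.31 ± 0.13 (limma adjusted p = 0.174), with its lowest value, 3345, in replicate 3. The membrane anchors Sdhc and Sdhd changed by -0.11 and -0.26, while a dim second probe set of Sdhd gave 0.16, without overlap in the opposite direction. No complex II subunit passed.

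In complex III 7 of 8 subunit genes were below 0 at 48 h, with a median of -0.21 (-0.14 without 0 h replicate 2), or -0.04 over all 13 of its tested probe sets. Uqcrh, the hinge protein that docks cytochrome c1 to cytochrome c, read 5056, 4194 and 6836 at 0 h and 4024, 3813 and 2539 at 48 h (-0.63 ± 0.23, limma adjusted p = 0.119). On the B arrays a different probe set of Uqcrh changed by -0.15, and the 95% intervals of both readings were -1.11 to -0.15 and -0.42 to 0.12. Uqcr10, a small subunit, changed by -0.49 ± 0.19 in its brighter probe set and -0.04 in the dim one. The Rieske iron-sulfur protein Uqcrfs1 changed by -0.25 ± 0.11, without overlap (limma adjusted p = 0.212). The core proteins Uqcrc1 and Uqcrc2 changed by -0.30 and -0.16, and a second Uqcrc2 probe set by 0.15. Uqcrq was the subunit above 0, at 0.17. None passed at any time.

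In complex IV 10 of 11 tested subunit genes lay below 0 at 48 h, with a median of -0.23 (-0.10 without 48 h replicate 3, -0.06 with quantile normalization), and 9 of 11 at 24 h, with a median of -0.15 (-0.01 with quantile normalization, -0.06 without 24 h replicate 3 and -0.09 without 0 h replicate 1). Cox6a1, the ubiquitous form of subunit 6a, was the 1 subunit gene of the 5 complexes called through its brightest probe set. That probe set read 11636, 11541 and 11680 at 0 h, 9215, 9121 and 9306 at 24 h and 9818, 9737 and 7798 at 48 h. Every 24 and 48 h value was below every 0 h value. The fall was -0.36 ± 0.10 at 48 h (limma adjusted p = 0.0411), and at 24 h the change was -0.33 ± 0.10 (limma adjusted p = 0.063). The second Cox6a1 probe set read 5636, 5833 and 5062 at 0 h and 4201, 4579 and 3883 at 48 h, and also fell (-0.38 ± 0.11, limma adjusted p = 0.0401). The calls were lost in 13 and 11 of 24 alternatives, with sizes of -0.15 to -0.46 and -0.30 to -0.49. Both calls ended on removing replicate 1 at 48 h (-0.41 and -0.38), replicate 3 at 48 h (-0.25 and -0.33), replicate 1 at 0 h (-0.36 and -0.37) or replicate 2 at 0 h (-0.36 and -0.34). Both also ended, with the size as with all arrays, for replicate 3 at 4 h and replicates 1 and 2 at 24 h. The brighter one ended for replicate 3 at 0 h (-0.35) and replicate 1 at 12 h as well. With quantile normalization the changes were -0.15 and -0.30, neither of which passed.

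The other complex IV subunits had no change that passed. Cox6c, a small nuclear-encoded subunit, read 10684, 10446 and 9093 at 0 h and 8898, 8012 and 7829 at 48 h, again without overlap (-0.29 ± 0.09, limma adjusted p = 0.0794). Cox4i1, the common form of the largest nuclear-encoded subunit, changed by -0.08 ± 0.11, with a 95% interval of -0.31 to 0.15. Cox5a and Cox5b, which sit on the matrix side of the complex, changed by -0.14 and -0.19 in their brightest probe sets. The 5 tested Cox5b probe sets ran from -0.29 to 0.06. Cox7a2 changed by -0.20 and Cox8a by -0.32. Cox4i2, a form known for its induction under low oxygen, was the subunit above 0 (0.33 ± 0.23, limma adjusted p = 0.475). Cox7a2l, which takes part in joining complexes III and IV, changed by 0.08. Cox8c, known mainly from testis, changed by -0.36 on the A arrays without overlap.

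In complex V 15 of 17 subunit genes lay below 0 at 48 h, with a median of -0.16, but the median was -0.02 without 48 h replicate 3 and -0.03 with quantile normalization. Atp5k, subunit e of the membrane part, read 6946, 4160.5 and 6086 at 0 h and 3883, 3398 and 3500.2 at 48 h (-0.64 ± 0.20, limma adjusted p = 0.0649). The groups did not overlap, but the 0 h values spread widely and the other 2 Atp5k probe sets gave -0.18 and -0.14. The alpha subunit Atp5a1 and the beta subunit Atp5b, which carries the catalytic sites, changed by -0.19 and -0.20, and the central stalk subunit Atp5c1 by -0.22. A dim Atp5a1 probe set gave -0.50, without overlap. The 3 genes of the c ring, which encode the same mature protein, gave -0.09 (Atp5g1), -0.04 (Atp5g2) and -0.29 (Atp5g3, limma adjusted p = 0.167). Atp5j, a subunit of the stalk, changed by -0.33 ± 0.13 without overlap (limma adjusted p = 0.172). None passed at any time.

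**Figure D4:**
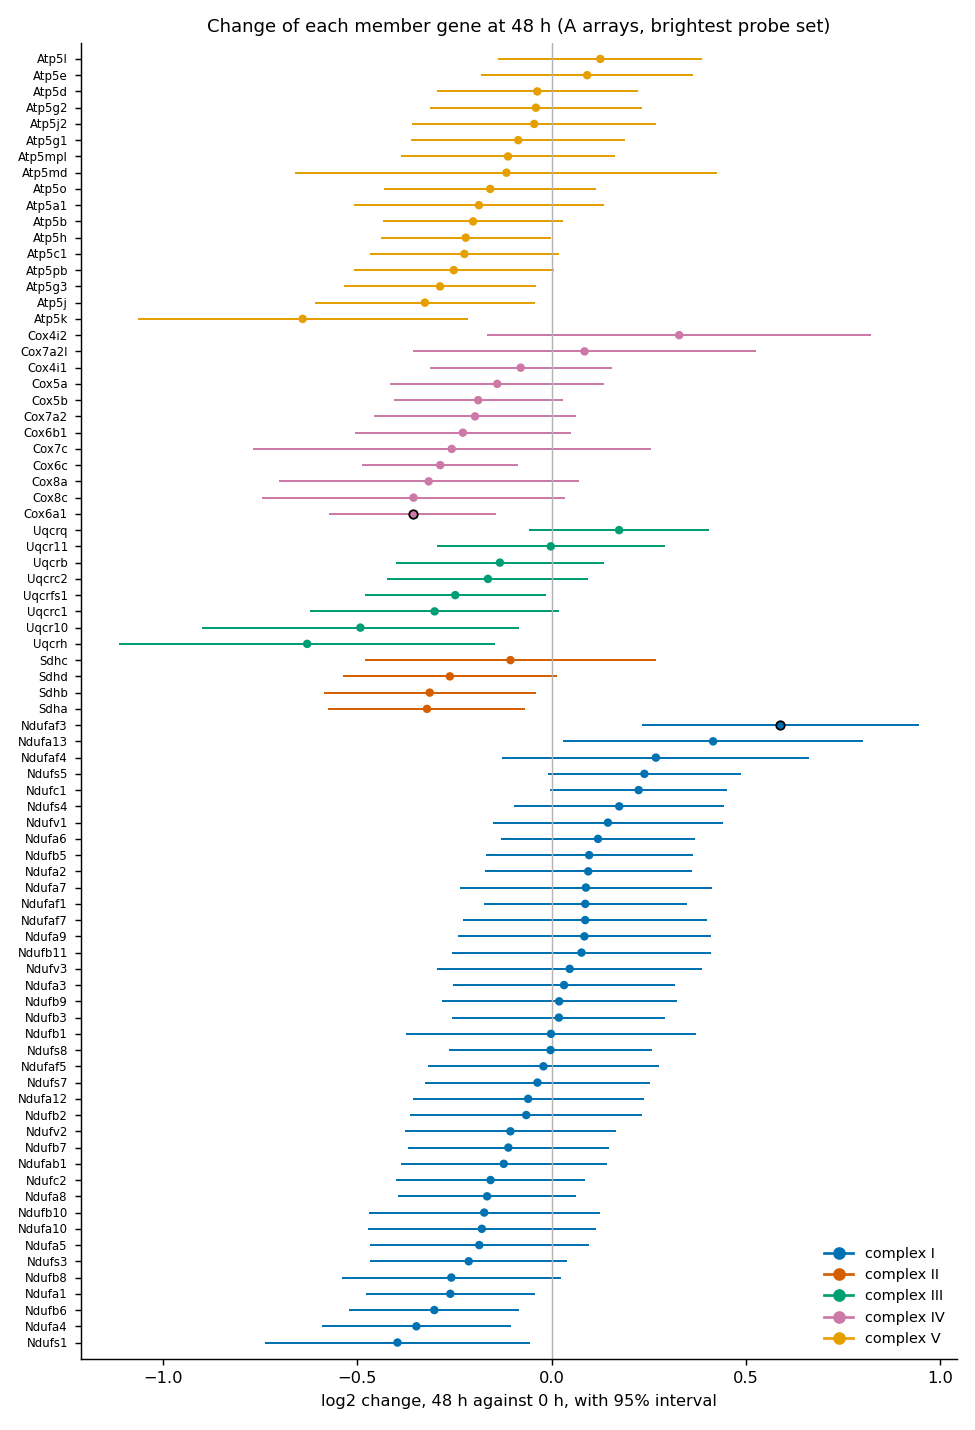
Log2 change at 48 h against 0 h (points) with its 95% interval (lines) for the 80 member genes tested on the A arrays, each from its brightest probe set, grouped and coloured by complex with assembly factors and Cox7a2l beside their complex. Ndufaf3 (0.59) and Cox6a1 (-0.36), outlined in black, are the genes called; most other intervals cross 0.

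Set against each other within the same array, complex I had a higher median relative to complexes III, IV and V at 24 and 48 h than at 0 h. The median deviation of complex I minus that of complex IV was -0.12, -0.23 and -0.03 at 0 h, 0.11, 0.20 and 0.03 at 24 h and -0.01, 0.19 and 0.08 at 48 h. The later values lay above all 0 h values at both times, while at 4 and 12 h they overlapped them. The means went from -0.13 ± 0.10 at 0 h to 0.11 ± 0.09 at 24 h and 0.09 ± 0.10 at 48 h (SD, n = 3). Complex I minus complex III went from -0.06 ± 0.04 to 0.07 ± 0.03 and 0.07 ± 0.07. Complex I minus complex V went from -0.08 ± 0.06 to 0.05 ± 0.03 and 0.04 ± 0.04. Both were without overlap at 24 and 48 h, and complex I minus complex V also at 12 h. The margin at 48 h was narrow: the lowest values were -0.006 and -0.002, and the highest at 0 h were -0.017 and -0.026. Against complex II the difference was -0.11 ± 0.11 at 0 h and 0.13 ± 0.18 at 48 h, where the values did not overlap. These medians, of 1 probe set per gene, were given no test. With quantile normalization the median change of complex IV was -0.01 at 24 h, and those of complexes IV and V were -0.06 and -0.03 at 48 h. The within-array differences are given without that normalization. Over all tested probe sets of the subunits, the median change at 48 h was -0.01 for complex I and -0.04 for complex III. For complexes IV and V it was -0.21 and -0.14. Complex IV and V probe sets were brighter (median mean intensities of 6832 and 5136) than those of complex I (3146), II (2652) and III (3083), and the part of brightness in these differences was not tested.

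Where a gene had several probe sets, they did not always move alike. On the A arrays 41 member genes had at least 2 tested probe sets, and for 27 of these all had the same sign at 48 h. The median spread between the highest and lowest log2 change of a gene was 0.11, and the widest was 1.25, for Ndufa7. Atp5k (0.50), Ndufab1 (0.47), Ndufs8 (0.46) and Uqcr10 (0.45) followed.

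The ubiquitous forms stood in contrast to the muscle forms of the same complex IV subunits, which were the comparison chosen for this list. Cox6a2 read 492, 536 and 505 at 0 h, 1236, 1395 and 657 at 12 h, 2085, 2046 and 1258 at 24 h and 2197, 2838 and 2062 at 48 h. The 12 h and 24 h values of replicate 3 were lower than those of replicates 1 and 2, yet all were above 0 h. Within each array, the log2 difference of Cox6a2 from Cox6a1 changed by 1.04 ± 0.22 at 12 h (limma adjusted p = 0.0518, not past the threshold). It rose by 2.08 ± 0.22 at 24 h (limma adjusted p = 5.14e-05) and 2.52 ± 0.22 at 48 h (limma adjusted p = 1.86e-06). The last is a 5.74-fold change of the ratio. Most of it lay in Cox6a2 itself, at 2.16, and -0.36 lay in Cox6a1. A probe set of Cox6a2 on the B arrays changed by 2.27 ± 0.34 (limma adjusted p = 0.0025).

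In subunit 8 the difference was of similar size. Cox8b read 234, 252 and 251 at 0 h, 1226, 1186 and 552 at 24 h and 869, 894 and 707 at 48 h, with replicate 3 lowest at both later times. Cox8a read 8889.7, 8781 and 6542 at 0 h, 6444, 7063 and 7092 at 24 h and 5858, 9017 and 4996 at 48 h. The Cox8a values of the 3 times overlapped. The difference of Cox8b from Cox8a rose by 2.08 ± 0.32 at 24 h (limma adjusted p = 0.000952) and 1.99 ± 0.32 at 48 h (limma adjusted p = 0.000792). The muscle form of subunit 7a, Cox7a1, was too dim to be tested alone, at 45.8, 5.4 and 25.1 at 0 h and 46, 42.8 and 32.9 at 48 h. Its difference from Cox7a2 changed by 0.77 ± 0.48 (limma adjusted p = 0.4, 95% interval -0.24 to 1.78). For Cox4i2 against Cox4i1 the change was 0.41 ± 0.23 (limma adjusted p = 0.35, 95% interval -0.08 to 0.90). In two-sided exact permutation tests of each single difference at 48 h, the p-values were 0.1, 0.1, 0.1 and 0.2 in the order given, and 0.1 is the smallest that 3 arrays against 3 allow. The Cox6a2 and Cox8b differences were called in all 22 alternatives, with sizes of 2.32 to 2.62 and 1.83 to 2.18.

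**Figure D5:**
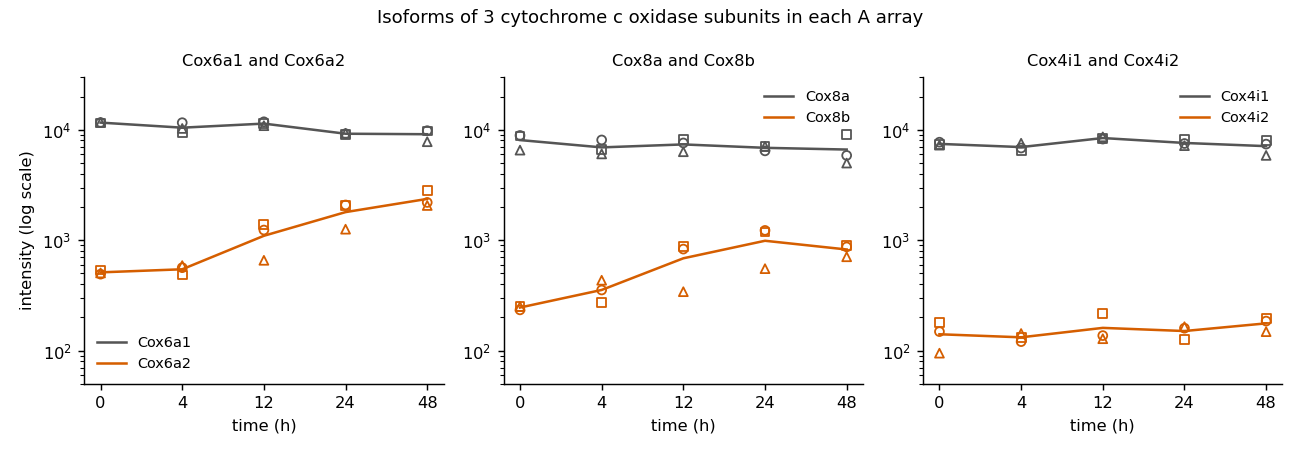
Intensity (log axis) in each A array (points, by replicate as circle, square and triangle) and the mean of 3 arrays (lines) by time in h for the ubiquitous (grey) and the other (orange) form of 3 complex IV subunits. Cox6a2 goes from 511 to 2366 and Cox8b from 245 to 824 between 0 and 48 h, while Cox4i2 stays between 94.7 and 218; heights of different genes are not comparable.

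Promoters of 3 of these isoform genes are shown because the forms moved apart in the data. RefSeq promoter sequences (GRCm38.p6) were matched by symbol for 72 of the 87 member genes. The sequences are the 250 bases before the annotated start of Cox6a1 (chr5:115348959-115349208, minus strand), Cox8a (chr19:7217617-7217866, minus strand) and Cox8b (chr7:140900447-140900696, minus strand), 5′ to 3′. Capitals mark the palindrome of NRF1 (GC followed by GCATGCGC) and the motif CCGGAAG of the ETS and GABP factors, known regulators of respiratory genes, and the E-box CAGCTG of muscle regulatory factors, on either strand.
Cox6a1: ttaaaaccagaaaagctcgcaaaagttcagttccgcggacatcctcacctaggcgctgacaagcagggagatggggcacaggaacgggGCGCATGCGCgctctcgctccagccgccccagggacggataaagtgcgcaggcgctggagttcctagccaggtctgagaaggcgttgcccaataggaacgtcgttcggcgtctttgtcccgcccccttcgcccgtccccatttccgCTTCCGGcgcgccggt
Cox8a: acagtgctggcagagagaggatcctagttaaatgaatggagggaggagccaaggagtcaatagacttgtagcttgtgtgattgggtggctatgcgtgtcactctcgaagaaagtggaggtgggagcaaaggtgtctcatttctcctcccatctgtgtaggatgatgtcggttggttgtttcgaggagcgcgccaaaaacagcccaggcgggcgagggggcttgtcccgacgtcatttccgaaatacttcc
Cox8b: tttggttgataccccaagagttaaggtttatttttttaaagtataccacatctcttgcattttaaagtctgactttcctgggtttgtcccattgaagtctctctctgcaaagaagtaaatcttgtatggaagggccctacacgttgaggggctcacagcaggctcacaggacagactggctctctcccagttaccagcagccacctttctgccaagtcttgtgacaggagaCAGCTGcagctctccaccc
The Cox6a1 stretch holds 1 NRF1 and 1 ETS match. In Cox8a, 1 ETS match runs past the end of the printed stretch, and Cox8b holds 1 E-box and neither of the other motifs. A match is a description of the letters and not a site of binding.

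Over the window of 250 bases before to 50 after the start, both strands, the members' promoters held the motifs of respiratory regulators at a higher share than promoters at large. The NRF1 palindrome was in 6 of 72 (8.33%), beside 1.07% of all 27025 promoters: Atp5g2, Atp5k, Cox6a1, Ndufaf4, Ndufaf5 and Uqcrc1. Its core GCATGCGC, which every such match also holds, was in 11 (15.3%, beside 3.05%). CCGGAAG was in 19 (26.4%, beside 9.93%), among them Cox6a1, Cox8a, Sdhb, Sdhd and Uqcrh. The ERR motif TCAAGGTCA was in 2 (2.78%, beside 0.466%), Atp5g3 and Sdhd, and the YY1 motif (AAGATGG followed by CGGC) in 4 (5.56%, beside 0.755%). The E-box CAGCTG, added after the other values were seen, went the other way, in 5 (6.94%, beside 18.3%). No test was made of these shares, and each motif was searched as spelled here. The promoters at large were not matched to the members in expression or base composition. The shares thus do not show that the motifs are particular to these genes.

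Other genes of the pathway, from lists chosen with earlier results of these data known, gave few calls. A gene was counted as called if any of its probe sets passed, whereas the shares of all are shares of probe sets. Of 33 tested genes of electron carriers, assembly and ubiquinone synthesis, none passed at 4 or 12 h, 1 passed as higher at 24 h and 1 as lower at 48 h, when the median change was 0.08. Of all probe sets, 5.56% and 6.7% passed at these times. Uqcc1, an assembly factor of complex III, rose at 24 h in 1 of 2 probe sets (558, 529.5 and 439 at 0 h and 906, 838 and 659.6 at 24 h, 0.63 ± 0.17, limma adjusted p = 0.0357). Coq7, a hydroxylase of ubiquinone synthesis, fell by 48 h (1116, 1829 and 1086 at 0 h and 825, 768 and 560.4 at 48 h, -0.87 ± 0.20, limma adjusted p = 0.0137). Cytochrome c itself, Cycs, changed by -0.31, -0.18 and -0.09 in 3 probe sets, and none passed.

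Of 15 tested genes of the tricarboxylic acid cycle and pyruvate dehydrogenase, 14 had a negative change at 48 h, with a median of -0.16, beside 47.5% of all probe sets with a negative change and 65.4% of those at or above the 90th percentile of brightness. The median gene of this list stood at percentile 93.5 of brightness. Without replicate 1, 2 or 3 at 48 h, 14, 11 and 12 of the 15 were negative. By limma 1 of the 15 passed, when 6.7% of all probe sets did. This was Idh3b, a subunit of the NAD-dependent isocitrate dehydrogenase, which read 1771, 1494 and 1762 at 0 h and 1008, 1166 and 955 at 48 h (-0.68 ± 0.13, limma adjusted p = 0.00399). Its second probe set changed by -0.29 and did not pass. Of 16 tested regulators of mitochondrial gene expression none passed at any time in limma, and their median was 0.02 at 48 h. Nearest was Ppargc1b, a coactivator of mitochondrial genes, at 799.5, 954 and 699 at 0 h and 644, 563 and 581 at 48 h (-0.44 ± 0.13, limma adjusted p = 0.0506), with no overlap. Tfam, which packages and transcribes mitochondrial DNA, changed by 0.08, and Ppargc1a by -0.28 in the 1 of its 5 probe sets bright enough to test. The genes singled out in these lists were chosen after their values were seen.

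On the B arrays 16 of 22 member probe sets, for 14 of 18 genes, were tested, and limma called none at 4, 12, 24 or 48 h, when 0%, 0.074%, 0.97% and 0.933% of all 13507 passed. The F-test called none (1.02% of all). At an unadjusted p under 0.05 these were 1, 2, 0 and 1 members at the 4 times, with 5.17%, 8.12%, 10.3% and 10.3% of all. The members on this type were mostly dim, with a median percentile of 54.6. Cox8c, in a probe set that may match other transcripts, read 2704, 2368 and 2212 at 0 h and 764, 569 and 2496 at 48 h (-1.22 ± 0.40, limma adjusted p = 0.243). Replicates 1 and 2 were low at 48 h and replicate 3 was not, and without that array the count at 48 h was 1. Ndufa4l2, a relative of Ndufa4 known as a target of hypoxia signalling, changed by -0.33 ± 0.30 without overlap. The brightest members, Uqcrh and an Ndufc2 probe set, changed by -0.15 and 0.03. With the 0 h array whose source name is leg muscle left out, limma also called 0 members at each time.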

How the data were processed

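Gene expression was measured on 30 Affymetrix arrays of cultured mouse extraocular muscle. The authors deposited 1 intensity per probe set and array, on a linear scale; per the labels no further step is recorded, and software, background correction and summary method: not given in the sources used here. The trimmed mean (2% cut at each end) was 500.2 on every A array and 500.1 on every B array, so arrays had been scaled to it. Samples were grouped by their labels. Members and gene lists were chosen with earlier results of these data known.

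Values were analysed as log2(intensity + 16), so the change of dim probe sets is understated. Probe sets below the 40th percentile of mean intensity (an intensity of 101 for the A type, 199.6 for the B type) were not tested, and 13577 and 13507 remained. All 5 times entered 1 limma 3.58.1 fit per array type (R 4.3.3, intensity trend), with Benjamini-Hochberg adjustment over all probe sets and a threshold of 0.05. Isoform pairs were fitted as within-array differences. A gene's level was read from its brightest probe set. A separate limma fit of the same kind was tested on simulated arrays, with changes larger than those of nearly all members. Recovery of changes as small as most of those seen here was not tested.

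Genes named were mainly every called member, the 3 with the largest statistic at 48 h in each complex on the A arrays, and a list of core subunits. Ndufa13, Ndufs5 and the assembly factors beside Ndufaf3 were added after their values were seen. Others, among them the related proteins Cox7a2l and Ndufa4l2, were named outside these rules. The alternatives were normalization by quantiles or by the median, other pseudocounts, another filter or none, no intensity trend, only the times compared, all probe sets of a subunit, a replicate block and each array left out. Replicate numbers were checked for pairing. Same-numbered A arrays had deviations correlated at -0.36 to 0.42, over 0.1 in 10 of 30 pairs. Differently numbered A arrays had -0.36 to 0.47, over 0.1 in 14 of 60 pairs. On the B type these counts were 1 of 30 and 2 of 60. The ranges overlap, so the check does not settle whether equal numbers belong together. The labels do not say it either, and the arrays were not treated as pairs. Figures were drawn with matplotlib 3.10.9.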

Additional observations from a re-analysis of the deposited data

How the results depend on the processing

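Over 40 counts, medians and isoform differences and their alternatives, 930 values were computed. Of these, 874 kept their direction and side of the threshold or moved by less than the spread between arrays, and 56 did not. None of the changed values was classed as a reversal, but medians near 0 could change sign. The complex I median at 48 h went from -0.020 to 0.088 without 48 h replicate 3. Of 264 values for 11 called changes of single probe sets, 212 kept their call and 52 lost it: Ndufaf3 in 7 at 24 h and 15 at 48 h, the Cox6a1 probe sets in 13 and 11, Ndufa7 in 3 and Cox6a2 on the B arrays at 24 h in 3. The changes of 2.52 and 1.99 in the Cox6a2 and Cox8b differences kept their call in all 22 alternatives. Member counts on the A arrays were less stable. With quantile normalization they were 0 at 24 h, 1 at 48 h (lower) and 1 in the F-test, and the medians were -0.0051 for complex IV at 24 h and -0.21, -0.063 and -0.033 for complexes II, IV and V at 48 h. With arrays scaled to the same median, complex II was 0.0058 at 12 h and -0.39 at 48 h, complex IV was -0.33 at 48 h, and the F-test called 1. Without a filter the counts were 0 at 24 h, 1 at 48 h and 1 in the F-test, and without the intensity trend 1 at 48 h and 1 in the F-test. With only the times compared 1 was called at 48 h, as higher. With all probe sets of a subunit, complex III was -0.045 at 48 h. The causes were not tested.

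Leaving out 1 array at a time gave counts of 0 to 1 at 12 h, 0 to 5 at 24 h, 0 to 6 at 48 h and 0 to 5 in the F-test, 0 to 1 at 12 h against 4 h and at 48 h against 24 h, and 0 to 1 on the B arrays at 48 h and in their F-test. The median was -0.11 to -0.018 for complex II and -0.20 to -0.061 for complex IV at 24 h. At 48 h the medians were -0.14 to 0.088 for complex I, -0.31 to -0.19 for II, -0.27 to -0.10 for IV and -0.21 to -0.022 for V. With the replicate number as a block, 5 members were called at 48 h and 3 in the F-test, and no other count moved. Whether equal numbers pair the arrays is not known.

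With 3 arrays per time, small changes cannot be called. The 95% intervals are not adjusted for the number of probe sets, so a change whose interval leaves out 0 may still not pass. Ndufa4 at 48 h had an interval of -0.59 to -0.11 (limma adjusted p = 0.0788). Dim probe sets such as those of Cox7a1 and Cox6b2 also limit what can be read.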
